A study of Mus musculus with 6 samples.

Results

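Sox6, Pol II and input reads were followed at 7 genes of the Six-family and the Eya family, Six2, Six4, Six5, Eya1, Eya2, Eya3 and Eya4, out of 23061 mouse genes with a RefSeq transcript. The genes were chosen by name, placed on NCBI Build 37 (mm9) by their longest GENCODE model, and given every deposited Sox6 peak whose centre lay in the gene or within 20 kb of it. Wild type C57BL/6 limb myoblasts taken at E18.5 were grown to passage 17 and held in medium with 2% horse serum for 48 hours to form myotubes, and this one kind of culture was the source of all 6 libraries. The 3 groups were Sox6 ChIP, Pol II ChIP and input DNA with 2 libraries each, so no group differed from another by genotype, age or treatment, and the comparison at every gene was ChIP against input. The replicates are described as independent ChIP experiments, but nothing states that they came from separate animals. The p-values of the limma fits thus cover only these libraries, with the spread of each gene drawn towards a trend over all genes. For Pol II at starts the SE was set by that trend alone and not by how far a gene's own replicates lay apart. The p-values of single peaks come from the reads of 1 Sox6 and 1 input library, hold no spread between libraries, and cover counting error only, with amplified reads taken as independent. The Sox6 antibody was a rabbit polyclonal and the Pol II antibody a mouse monoclonal against a phosphorylated form. Cells of passage 17 are a cultured model and not the limb muscle itself.

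Six-family proteins are homeodomain transcription factors that bind the MEF3 element. Eya proteins do not bind DNA themselves and act as coactivators and phosphatases carried to DNA by Six-family proteins. Together they are known for switching on the fast-fibre programme in muscle, while Sox6 is known for repressing slow-fibre genes in fetal fast fibres, and Pol II on a gene is a readout of its transcription.

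The depth was low for the ChIP libraries, with 1468604 to 2985437 mapped reads for Sox6, 1538757 to 2762155 for Pol II, and 21973495 and 24249850 for the inputs. Levels are given as RPM, reads per 1000000 mapped reads of the library, or over gene bodies as RPKM, RPM per kb of length. Many windows held only a few reads, and intervals and floors cover counting error only. As a check of the myotube label, Pol II exceeded input at the starts of 8 of 8 myotube markers, and of 0 of 4 fibroblast, 1 of 3 neuron, 0 of 2 liver and 0 of 2 blood markers tested, where 44.9% of all genes tested were higher.

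The sequences that the results turn on are given first, all in Build 37 letters and 5′ to 3′. Eya4 was the only one of the 7 genes with Sox6 peaks found in both replicates, and both of them lie in its intron 3. They are printed on the plus strand of chromosome 10, with the letters ACAAAG or ACAATG of a Sox motif and CAGCTG or CAGGTG of an E-box, on either strand, in capitals.

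Eya4 intron 3, 154.4 kb past the start, chr10:22915202-22915361: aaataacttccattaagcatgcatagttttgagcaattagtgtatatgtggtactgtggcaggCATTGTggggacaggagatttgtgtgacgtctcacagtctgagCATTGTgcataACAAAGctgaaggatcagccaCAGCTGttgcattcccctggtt
Eya4 intron 3, 129.3 kb past the start, chr10:22940322-22940481: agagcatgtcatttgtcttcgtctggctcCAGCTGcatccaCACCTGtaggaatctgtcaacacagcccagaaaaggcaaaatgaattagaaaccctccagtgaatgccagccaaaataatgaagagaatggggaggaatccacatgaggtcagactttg

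The first interval held 3 Sox matches and 1 E-box, and the second held 2 E-boxes and no Sox match. In windows of 200 bp around the centres of the 1066 common Sox6 peaks, a Sox match was found in 58.4% and an E-box in 66.4%, so matches of either kind are frequent in this list. The letters are a description and not a site.

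The other sequences are the 250 bases before the RefSeq start of Six2, Six5 and Eya4, which are the starts with the most Sox6 or Pol II reads among the 7 genes. RefSeq gives them on GRCm38.p6, and each was placed on Build 37 by its single exact match. In Six2 the capitals mark the 80 bases of a Sox6 peak of the replicate 2 list, and in Six5 they mark Sox letters.

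Six2 upstream, minus strand, chr17:86087595-86087844: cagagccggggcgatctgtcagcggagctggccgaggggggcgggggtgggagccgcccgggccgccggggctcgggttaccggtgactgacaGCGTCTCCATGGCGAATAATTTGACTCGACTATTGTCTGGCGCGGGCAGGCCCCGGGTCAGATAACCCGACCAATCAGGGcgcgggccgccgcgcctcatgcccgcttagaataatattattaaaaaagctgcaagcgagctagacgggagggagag
Six5 upstream, plus strand, chr7:19679643-19679892: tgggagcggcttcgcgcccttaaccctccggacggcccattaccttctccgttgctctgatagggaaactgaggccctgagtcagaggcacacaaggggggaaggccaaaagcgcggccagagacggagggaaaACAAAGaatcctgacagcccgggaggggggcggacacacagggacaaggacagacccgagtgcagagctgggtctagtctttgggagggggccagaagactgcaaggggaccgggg
Eya4 upstream, minus strand, chr10:23069697-23069946: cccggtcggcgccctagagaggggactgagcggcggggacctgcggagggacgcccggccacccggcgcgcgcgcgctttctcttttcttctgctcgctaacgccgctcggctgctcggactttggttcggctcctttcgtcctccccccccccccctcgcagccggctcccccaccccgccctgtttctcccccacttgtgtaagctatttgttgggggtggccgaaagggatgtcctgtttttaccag

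Six5 held 1 Sox match in this stretch, and Six2 and Eya4 held none. Among 32851 RefSeq promoters of 300 bases, 28.6% held a Sox match and 32.9% an E-box. The MEF3 letters TCAGGTT, read on both strands, occurred in 1 of the 7 RefSeq promoters matched to these genes, a Six4 promoter, against 4.07% of all promoters, and promoters were matched for Six2, Six4, Six5, Eya3 and Eya4.

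Pol II against input differed among the 7 genes. Eya4, Eya3 and Six4 held more Pol II than input at the start and along the gene, but the start calls of Eya3 and Six4 were lost with median or GC centring. Eya1 and Eya2 missed the threshold at the start and held less than input over the body as a whole, though not in every part of it. Six2 had too few reads to say, and the high value at Six5 came from reads before its start, where the neighbouring gene Dmpk ends 723 bp upstream.

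Eya4, a coactivator gene known for its part in the inner ear and heart, spans 246 kb of chromosome 10 (ENSMUSG00000010461, 22823974 to 23069701, minus strand, 19 exons). Within 1 kb to each side of its start, Pol II gave 11.7 and 12.3 RPM in replicates 1 and 2, against 1.27 and 0.907 in the inputs. Sox6 gave 1.34 and 2.04 RPM there. Both Pol II libraries were thus far above both inputs, and Sox6 was not far from them. The Pol II level was 11.2 times that of input, a log2 difference of 3.48 ± 0.31 (SE, n = 2 libraries a group; limma, adjusted p = 3.92e-27). With GC centring, the Eya4 value fell to 1.77 (limma, adjusted p = 0.0191). For scale, Actb, a housekeeping actin gene, gave 46.8 and 53.6 RPM of Pol II at its start.

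Over the body of Eya4, taken from 1 kb past the start to the end, Pol II reached 2.74 and 2.97 RPKM and input 1.12 and 1.04. The log2 difference was 1.405 ± 0.0665 (SE; limma, adjusted p = 8.94e-07), larger than in 81.9% of the genes tested. The input itself was dense at this gene, at 49.8 reads per kb of both inputs together, against a median of 23.4 over all gene bodies tested, and 99.5% of genes were lower. Chromosome 10 as a whole had 24.6 input reads per kb against 14.6 to 21.3 on the other autosomes, and the 500 kb before and after Eya4 had 33.4 and 22.6. The part of this in the Eya4 values was not tested.

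Six4 codes for a homeodomain factor of the Six-family and spans 13.2 kb of chromosome 12 (ENSMUSG00000034460, 74201246 to 74214401, minus strand). At its start Pol II gave 1.95 and 4.71 RPM from only 3 and 13 reads, against 0.728 and 1.11 for input. Replicate 2 was well above replicate 1, but both stood above both inputs, and the log2 difference of 1.85 ± 0.49 passed the test (SE; limma, adjusted p = 0.000437). The start call was lost without input replicate 1 (log2 1.56, adjusted p = 0.0637), with windows of 250 bp to each side (log2 1.61, adjusted p = 0.109), with an equal pseudocount in RPM (log2 1.71, adjusted p = 0.0643), with median centring (log2 0.78, adjusted p = 0.174) and with GC centring (log2 0.38, adjusted p = 0.601). Over the body, where more reads fell, Pol II reached 2.14 and 2.98 RPKM against 0.670 and 0.780, a log2 difference of 1.81 ± 0.20 (SE; limma, adjusted p = 7.81e-05). Mnat1, a gene on the opposite strand, begins 10303 bp upstream, and reads carry no information on which strand was transcribed.

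Eya3, another Eya coactivator gene, spans 85.7 kb of chromosome 4 (ENSMUSG00000028886, 132194961 to 132280680, plus strand). Pol II at its start gave 5.20 and 2.90 RPM from 8 reads in each library, against 1.14 and 1.24 for input. Both replicates exceeded input, with a log2 difference of 1.77 ± 0.41 (SE; limma, adjusted p = 5.30e-05). The start call was lost with median centring (log2 0.70, adjusted p = 0.135) and with GC centring (log2 0.55, adjusted p = 0.352). Over the body Pol II gave 1.14 and 1.12 RPKM against 0.646 and 0.612, a log2 difference of 0.85 ± 0.09 (SE; limma, adjusted p = 6.05e-05). Xkr8 ends 132 bp past the end of Eya3 on the opposite strand, so the last part of the gene cannot be told apart from it.

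Eya1, the gene of branchio-oto-renal syndrome and an early myogenic coactivator, spans 141 kb of chromosome 1 (ENSMUSG00000025932, 14159035 to 14300281, minus strand). Its start held 2 and 4 Pol II reads, or 1.30 and 1.45 RPM, against 1.32 and 1.196 for input, and the log2 difference of 0.35 ± 0.57 missed the threshold (SE; limma, adjusted p = 0.653), though with 500 bp to each side it passed (log2 1.66, adjusted p = 0.0467). Over its body Pol II gave 0.371 and 0.354 RPKM against 0.508 and 0.447 for input. Both Pol II libraries lay below both inputs, and the log2 difference of -0.39 ± 0.10 passed the test as lower (SE; limma, adjusted p = 0.0106), a call lost without input replicate 1 (log2 -0.30, adjusted p = 0.141).

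Eya2, an Eya coactivator gene known from muscle, spans 116 kb of chromosome 2 (ENSMUSG00000017897, 165480798 to 165597227, plus strand). Its start held 2 Pol II reads in each library, at 1.30 and 0.724 RPM, below the 1.64 and 1.36 of the inputs, with a log2 difference of -0.32 ± 0.59 that missed the threshold (SE; limma, adjusted p = 0.698). Over the body Pol II gave 0.310 and 0.216 RPKM against 0.415 and 0.461 for input, a log2 difference of -0.75 ± 0.17 (SE; limma, adjusted p = 0.00507). This was the lowest Pol II body value of the 7 genes. A value below input is a share of a library and not a negative amount of Pol II.

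Six5, the homeodomain gene next to the myotonic dystrophy kinase gene Dmpk, spans only 3.80 kb of chromosome 7 (ENSMUSG00000040841, 19679893 to 19683694, plus strand). Its start window had the most Pol II of the 7 genes, at 23.4 and 19.6 RPM against 0.546 and 0.742 for input, a log2 difference of 5.04 ± 0.31 (SE; limma, adjusted p = 3.93e-57), which fell to 2.85 with GC centring (limma, adjusted p = 0.00298). Dmpk lies on the same strand and ends 723 bp upstream. In bins of 500 bp the last bin before the Six5 start held 20 and 22 Pol II reads, the first bin after it held 1 and 3, and the next held 0 and 0.

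The 24 bins of the 12 kb before the Six5 start held 4 to 32 Pol II reads in replicate 1 (median 12) and 8 to 54 in replicate 2 (median 21). The 8 bins of the first 4 kb after it held 0 to 2 and 0 to 5. The Pol II reads of the start window therefore lay on the Dmpk side of the start, and Pol II of the end of Dmpk cannot be told apart from Pol II at the Six5 start. Past 1 kb into Six5, the body held 5 and 15 Pol II reads, or 1.16 and 1.94 RPKM against 0.455 and 0.559 for input. Its log2 difference of 1.64 ± 0.42 passed the test (SE; limma, adjusted p = 0.00885), but the call was lost without either input (adjusted p = 0.0933 and 0.0518) and when genes were centred by GC content (log2 0.23, adjusted p = 0.505).

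**Figure D1:**
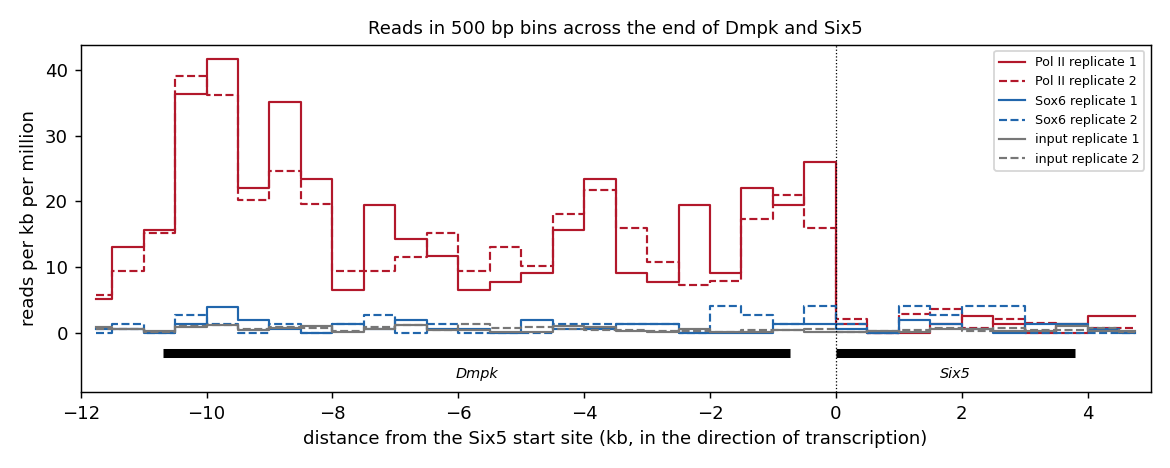
RPKM in bins of 500 bp (vertical axis) against distance from the Six5 start in kb (horizontal axis) for the 6 libraries, with Dmpk and Six5 drawn as bars. Pol II stays high along Dmpk up to the Six5 start, with 20 and 22 reads in the last bin before it and 1 and 3 in the first bin after it.

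Six2, a homeodomain gene known from nephron progenitors, spans 3.99 kb of chromosome 17 (ENSMUSG00000024134, 86083608 to 86087594, minus strand). Its start window had 3 and 7 Pol II reads, 7 and 14 Sox6 reads, and only 5 and 13 input reads, so it fell under the minimum of 20 input reads and was not tested there. The body held 3 Pol II reads in each library, at 0.653 and 0.364 RPKM against 0.442 and 0.456 for input. The groups overlapped, with a log2 difference of 0.32 ± 0.56 (SE; limma, adjusted p = 0.625).

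At the starts, 4 of the 6 genes tested exceeded input and none was lower, where 44.9% of 19354 genes tested were higher and 2.26% lower. Over bodies 4 of 7 were higher and 2 lower, where 39.6% of 17743 genes were higher and 28.3% lower. The shares of the 7 genes were thus not far from those of all genes. The median over all genes was a log2 of 0.92 at starts and 0.10 over bodies. With each library centred on its median gene, the genes called higher and lower at starts went from 8695 and 438 to 4920 and 3548, and over bodies from 7024 and 5029 to 5502 and 6762. The start values under median centring became 3.97 for Six5, 2.41 for Eya4, 0.78 for Six4 and 0.70 for Eya3, of which those of Six4 and Eya3 missed the threshold (limma, adjusted p = 0.174 and 0.135), and -1.39 for Eya2, which became lower (limma, adjusted p = 0.0474). The 6 body calls all stood under median centring. An equal pseudocount in RPM gave 7218 genes called higher and 1985 lower at starts, and GC centring 2936 and 944 at starts and 5721 and 6248 over bodies.

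By Pol II RPKM over the body, the order was Eya4, Six4, Six5, Eya3, Six2, Eya1 and Eya2. The replicates of Eya4 and Six4 overlapped, as did those of Six2 and Eya1, and the values of Six5 and Eya3 nearly touched. These levels are not divided by input, and relative to input Six4, not Eya4, was first.

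**Figure D2:**
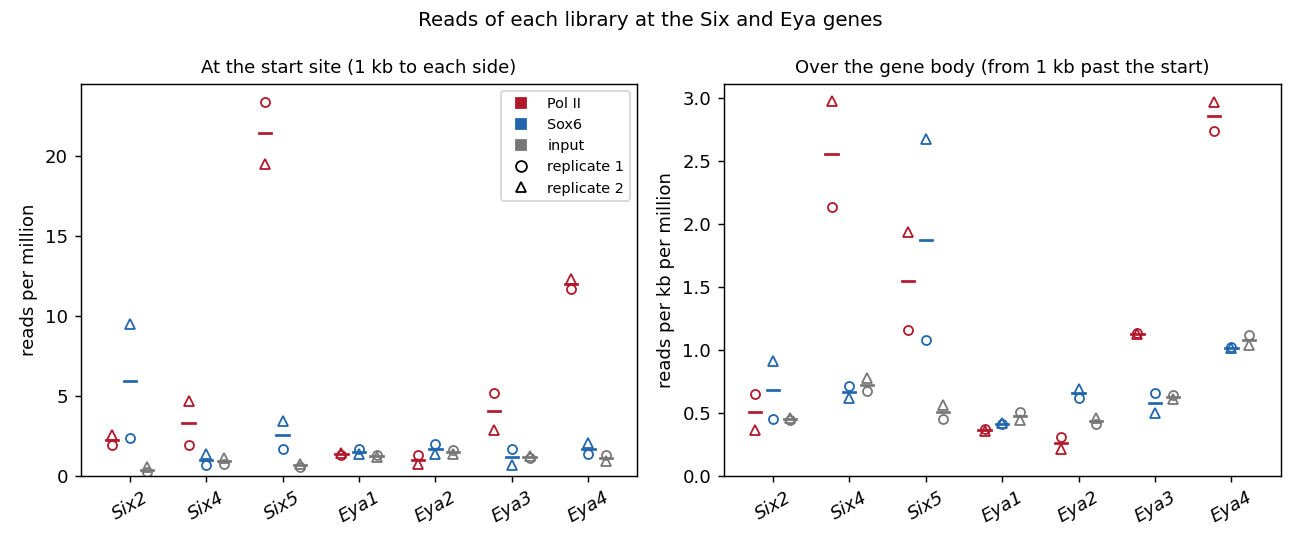
RPM within 1 kb to each side of the start (left) and RPKM over the gene body (right) for the 7 genes, with circles for replicate 1, triangles for replicate 2 and a line at their mean, for Pol II, Sox6 and input. Pol II stands above input at Six4, Eya3 and Eya4 in both panels, and at the Six2 start Sox6 replicate 2 reaches 9.53 RPM against 1.95 and 2.53 for Pol II.

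The profile along the gene separated the Eya genes in the same way. With each gene cut into 10 equal parts and each Pol II library set against the input of the same number, Eya4 was above input in both replicates in 10 of 10 parts, with log2 values of 1.06 to 1.87. Six4 was above input in both replicates in 10 of 10 parts and Eya3 in 9 of 10, while Eya1 was so in 1 of 10 and Eya2 in 0 of 10. Pol II was below input in both replicates in 6 of 10 parts of Eya1 and 6 of 10 parts of Eya2. These counts rest on log2 values with 0.5 reads added to each count. By RPKM alone, Pol II lay below input in part 4 of Six4 in replicate 1 (0.494 against 0.657). The same held in part 4 of Eya1 in replicate 2 (0.410 against 0.420). Pol II thus stood above input along the whole of Eya4 and not only at its start. Without GC centring it was higher at the start, at 11.2 times input against 2.65 times over the body. With GC centring the start value fell to a log2 of 1.77 ± 0.32 (SE), while the body value stayed close to 1.405. Most of this gap was thus lost with GC centring. In Pol II RPKM alone, the first 5 kb of the gene gave 5.59 and 6.52, against 2.74 and 2.97 over the body.

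**Figure D3:**
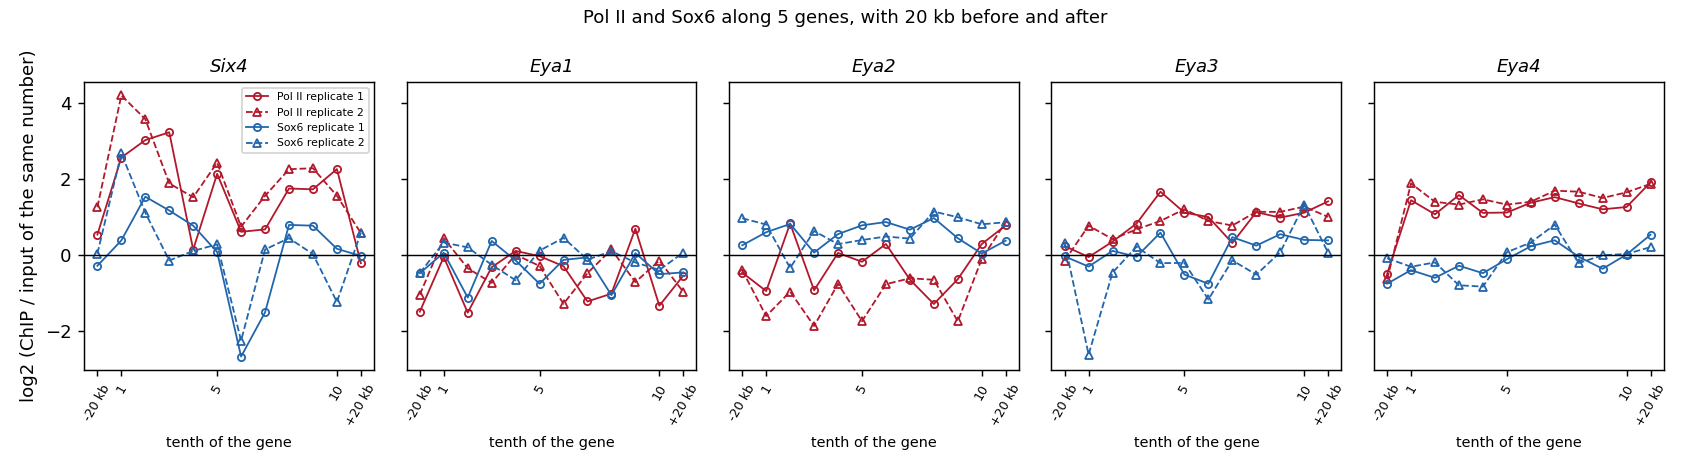
Log2 of ChIP over input (vertical axis, each library against the input of the same number) in 10 equal parts of Six4, Eya1, Eya2, Eya3 and Eya4 and in the 20 kb before and after, for Pol II in red and Sox6 in blue. Pol II lies above input in 10 of 10 parts of Eya4 in both replicates and in 0 of 10 parts of Eya2.

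Pol II was lower before the Eya4 start than after it. In bins of 5 kb, Pol II held 0 and 1 reads from 10 to 5 kb before the start, 12 and 19 reads, or 1.56 and 1.38 RPKM, in the last 5 kb before it, where input gave 0.828 and 0.668, and 43 and 90 reads in the first 5 kb of the gene, 5.59 and 6.52 RPKM. Past the annotated end Pol II did not fall, and the bin from 255 to 260 kb, past the end of the gene at 245.728 kb, held 58 and 85 reads, at 7.54 and 6.15 RPKM. No other gene is annotated in the 20 kb after Eya4.

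The deposited Pol II peaks gave the same 2 genes in each replicate. Eya4 had 6 peaks in the replicate 1 list and 23 in the replicate 2 list, and Six5 had 1 in each, which ended before its start at 19679671 and 19679831. The other 5 genes had none. A Pol II peak was present for 15.2% of all genes in replicate 1 and 21% in replicate 2. Only 1 Eya4 peak of each list overlapped a peak of the other, a start peak that was 161 bp wide in replicate 1 and 1601 bp wide in replicate 2.

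At annotated starts other than the one used above, Pol II reads were few. The second start of Eya1 and the 4 further starts of Eya2 held 0 Pol II reads in 500 bp to each side in both libraries. A count of 0 allows up to 3 reads at each, so a low level was not detectable at this depth. The 3 further starts of Eya3 held 2 to 4 reads in replicate 1 and 1 to 3 in replicate 2.

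Sox6 was read first at its deposited peaks and then over whole genes. Eya4 had both of the common peaks found at the 7 genes. A common peak lay within 20 kb of 4.33% of all genes and of 12.4% of the 2389 genes of 100 kb or more, a class to which Eya1, Eya2 and Eya4 belong. For the replicate 1 list these shares were 9.64% and 26.1%, and for the replicate 2 list 6.68% and 18.2%. At least 2 common peaks were found at 132 genes.

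At the common peak 154.4 kb past the Eya4 start, 450 bp around the centre held 17 and 16 Sox6 reads, or 5.69 and 10.9 RPM. Input gave 0.819 and 1.16 and Pol II gave 1.30 and 3.62 there. Both Sox6 libraries were above both inputs and both Pol II libraries. A Pol II peak of replicate 2, from 22915351 to 22915751, overlapped its edge.

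At the common peak 129.3 kb past the start, Sox6 gave 24 and 11 reads, or 8.04 and 7.49 RPM. Input gave 0.501 and 0.742 and Pol II 1.95 and 1.81, so the replicates were close and Sox6 was again above all 4 other libraries. No Pol II peak of either list overlapped it.

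The common list was made from both replicates, so an excess of Sox6 over input at its peaks was fixed by that choice. Only each single-replicate list can be tested, in the reads of the other replicate. Both common Eya4 peaks stand in each of these lists, so for them the other replicate was no test. For the replicate 1 list, 4 of 8 peaks at Eya4 held more Sox6 than input in replicate 2, where 67% of all 2888 peaks did. For the replicate 2 list, 3 of 3 peaks at the 7 genes held more Sox6 than input in replicate 1, where 84.4% of 1734 did. The member shares are near those of the lists. Both common Eya4 peaks are in each member count, as the common peaks are in the shares of all peaks. The comparison of these shares is therefore no test of the members. Apart from the common peaks, the peaks called were those at 153.3 and 110 kb in the replicate 1 list and the Six2 peak in the replicate 2 list. Counted in the deposited peak interval instead of 450 bp, 2 of 8 and 2 of 3 were called, where 31.2% and 45.6% of all peaks were.

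Of the 8 Eya4 peaks of replicate 1, 6 lie in introns 2 and 3, from 110 to 168 kb past the start. The 4 found in the other replicate were those at 154.4 kb, with 16 Sox6 reads against 28 input reads (adjusted p = 1.18e-08), at 129.3 kb, with 11 against 17 (adjusted p = 1.14e-06), at 153.3 kb, with 5 against 19 (adjusted p = 0.0175), and at 110 kb, with 4 against 16 (adjusted p = 0.0374), all by the exact two-sided binomial test. The first and the second of these are the common peaks, already called in replicate 2, so their small p-values are no test. The first and the third lie about 1 kb apart, and their windows of 450 bp do not overlap. The peaks at 122.9 and 168.3 kb held 3 and 1 Sox6 reads in replicate 2 and missed the threshold.

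In bins of 5 kb the highest Sox6 level lay inside the gene and near a common peak. Over the 49 bins inside Eya4, Sox6 replicate 1 ranged from 0.201 to 3.95 RPKM with a median of 0.871, and replicate 2 from 0.136 to 4.09 with a median of 0.817. The highest bin was the same in both, from 150 to 155 kb. Input was also at its highest in that bin, at 1.47 and 1.56, against medians of 1.14 and 1.02, a smaller excess than that of Sox6.

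The 2 remaining Eya4 peaks of replicate 1 lie past the end of the gene, centred 13.4 and 11.4 kb downstream. They held 13 and 14 Sox6 reads in replicate 1 but 2 and 3 in replicate 2 (exact two-sided binomial test, adjusted p = 0.158 and 0.104). Each Pol II list had 2 peaks in the same stretch, so this is where Pol II was high past the annotated end, and the Sox6 peaks there missed the threshold in replicate 2. The whole bin from 255 to 260 kb gave 3.48 and 2.04 RPKM of Sox6 against 1.22 and 1.24 of input.

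The last peak was at Six2, 117 bp before its start, and was in the replicate 2 list only. In 450 bp Sox6 gave 4 and 11 reads, or 1.34 and 7.49 RPM, Pol II gave 2 and 1 reads, and both inputs gave 0. Against a floor of 3 reads per input library, the Sox6 reads as counted were 9.81-fold higher in replicate 1 and 60.5-fold higher in replicate 2. The counting error of the 4 and 11 Sox6 reads is not in these values, so neither is a lower bound. Replicate 2 gave the peak, so its excess was fixed by that choice. In replicate 1, which did not give the peak, the 4 Sox6 reads against 0 input reads gave an adjusted p of 0.000357 (exact two-sided binomial test), which rests on these few reads of 1 pair of libraries and takes no account of GC content.

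The sequence around the Six2 peak was rich in G and C, and the part of this in its reads was not tested. The 450 bp window was 72.4% G and C, and the 2 kb start window 67.4%, against a median of 51.3% over all genes. Input at the Six2 start window was lower than at most genes, with 13.4% of genes having fewer input reads. In the fifth of genes with the most GC at the start, the median Sox6 log2 over input was 0.71, against -0.08 in the fifth with the least. Median input was 0.683 and 0.825 RPM in the former, 0.592 and 0.577 in the latter, and 1.09 and 1.196 in the fifth around the median GC. With no input minimum, Six2 exceeded input at its start by a log2 of 3.74 for Sox6 (limma, adjusted p = 0.00648, where 0.525% of genes were called, and 4.86% over bodies) and 2.73 for Pol II (limma, adjusted p = 0.000157, where 40.4% were). With genes also centred by GC content, an alternative chosen after seeing the data, the Sox6 value fell to 2.63 and missed the threshold (limma, adjusted p = 0.588), in a fit that called 0 of 22681 genes.

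Over the start windows as a whole Sox6 did not pass the test at any member. It was called at 0 of the 6 genes tested by limma, where 0.129% of all genes were higher. By voom it was called at 0, where 104 of 19354 genes were higher and 20 lower. At an unadjusted p under 0.05 there was 1, and the share of all genes at that level was not counted. The highest was Six5, with 1.67 and 3.40 RPM against 0.546 and 0.742 for input and a log2 difference of 2.00 ± 0.57 (SE; limma, adjusted p = 0.185). This rests on 5 Sox6 reads in each library. By bins of 500 bp, Sox6 held 2 and 1 reads, then 2 and 3, before the start, and 1 and 1 in the first bin after it. Sox6 reads of the end of Dmpk thus cannot be told apart from those of the Six5 start. The Six5 value passed with 500 bp to each side (log2 3.004, limma, adjusted p = 0.0245), where 3 and 4 Sox6 reads stood against 3 and 8 input reads. With either Sox6 library left out the spread comes from the inputs alone, and the log2 was 2.51 without replicate 1 and 1.48 without replicate 2. With GC centring, which called 0 genes of all those tested, the Six5 value was 1.04 (adjusted p = 0.711), and with no filter as well 0.88 (adjusted p = 0.588). The others lay between 0.18 for Eya3 and 0.79 for Eya4, beside a median of 0.37 over all genes, and each of these 5 fell below 0 under another scaling, pseudocount or GC centring, Eya4 only with no filter and GC centring together. Without Sox6 replicate 1 the Eya4 value rose to a log2 of 1.12.

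Over bodies Sox6 passed at 1 of 7 genes, Eya2, where 5.15% of all genes were higher and 1.66% lower. Eya2 gave 0.618 and 0.690 RPKM against 0.415 and 0.461 for input, and both Sox6 libraries exceeded both inputs. The log2 difference was 0.58 ± 0.11 (SE; limma, adjusted p = 0.0313). The call was lost with median centring (log2 0.40, adjusted p = 0.0787), with GC centring (log2 0.14, adjusted p = 0.609) and without input replicate 1 (log2 0.51, adjusted p = 0.271). Eya2 had no Sox6 peak within 20 kb in any list. Median centring changed the genes called higher and lower from 913 and 294 to 142 and 301, and GC centring to 3 and 0.

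Six5 had the largest Sox6 body value, at 1.08 and 2.67 RPKM from 9 and 11 reads against 0.455 and 0.559 for input, and a log2 difference of 1.80 ± 0.50 that missed the threshold (SE; limma, adjusted p = 0.0661). It passed with voom (adjusted p = 0.0227), with 2 reads added (adjusted p = 0.0409), with the replicate block (adjusted p = 0.0136) and with either Sox6 library left out, but with GC centring it was 0.92 (adjusted p = 0.488). Eya4, for all its peaks, gave 1.03 and 1.01 against 1.12 and 1.04, with a log2 difference of -0.08 ± 0.07 (SE; limma, adjusted p = 0.487). With GC centring, the Eya4 value turned to 0.24 ± 0.06 (SE) and also missed the threshold (limma, adjusted p = 0.395). Six4, Eya1 and Eya3 lay between -0.20 and -0.08. Six2 gave 0.449 and 0.912 RPKM from 4 reads in each library against 0.442 and 0.456 for input, and its log2 difference of 0.66 ± 0.54 missed the threshold (SE; limma, adjusted p = 0.449), but passed without Sox6 replicate 1 (log2 1.17, adjusted p = 0.00548).

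**Figure D4:**
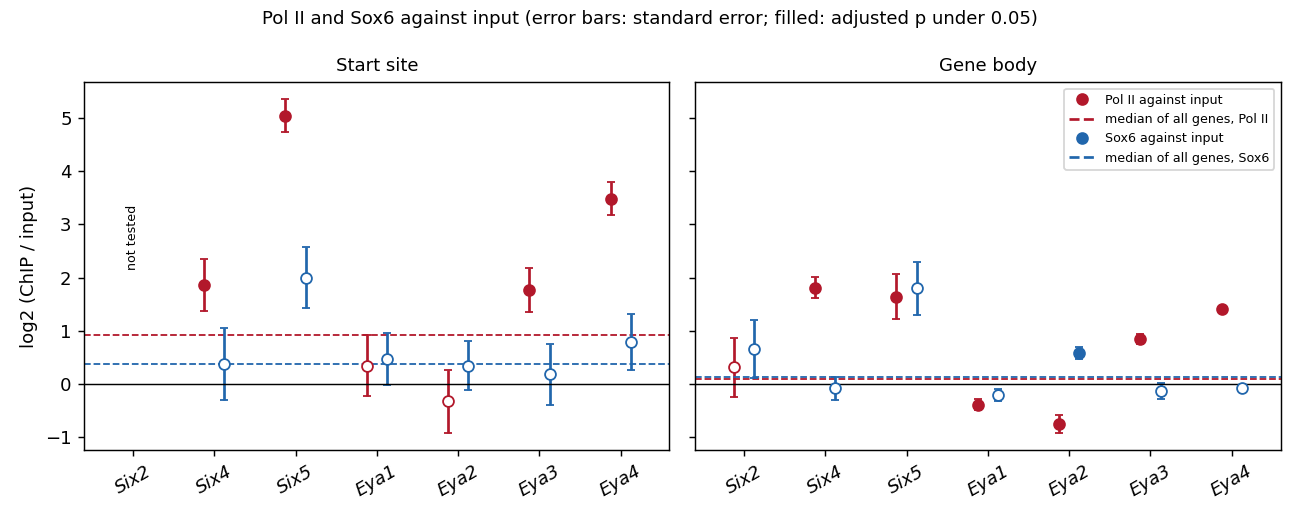
Log2 of ChIP over input with its standard error (vertical axis) for Pol II in red and Sox6 in blue at the start and over the body of the 7 genes, filled where the adjusted p is under 0.05, with the median over all genes as dashed lines. Pol II is filled at 4 of 6 starts and 6 of 7 bodies, and Sox6 at 0 of 6 starts and 1 of 7 bodies.

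The genes that work with the Six-Eya complex were read in the same fits. Of the 4 partners, Dach1 and Dach2, known as corepressors within the Six-Eya network, and Pax3, an upstream regulator of limb myoblasts, were lower than input for Pol II over the body, with log2 values of -1.98, -1.64 and -0.68 (limma, adjusted p = 3.82e-06, 0.000143 and 0.0168), where 28.3% of all genes were lower. Pax7, the marker of muscle progenitors, was higher over the body at 1.21 and at the start at 2.07 (limma, adjusted p = 8.12e-06 and 0.00011). For Sox6 over bodies 1 of the 4, Pax7, was higher and 2, Dach1 and Dach2, were lower, where 5.15% of all genes were higher and 1.66% lower.

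The fast-fibre list, part of which is known as targets of the Six-Eya pathway, had larger Pol II values than the regulators. Over bodies 13 of 16 were higher for Pol II and 1 lower, with a median log2 of 4.19, beside 0.85 for the 7 Six-Eya genes and 0.10 for all genes tested, of which 39.6% were higher. Tnnt3, a fast troponin T, was 37.8-fold above input, and Myh8, the perinatal fast myosin heavy chain, 32.0-fold (limma, adjusted p = 1.85e-08 for both). The 3 fast-fibre genes not called higher were the adult fast myosin genes Myh2 and Myh4, with log2 values of -0.88 (limma, adjusted p = 0.00705, lower) and -0.33 (limma, adjusted p = 0.226), and the calcium-binding parvalbumin gene Pvalb, at 0.54 (limma, adjusted p = 0.0731). Of the slow-fibre list 6 of 8 were higher over bodies, with a median of 2.34, again beside 39.6% of all genes. The longest model gave Tnnc1 a body of 40.2 kb. Tnni1 held 0 and 2 Pol II reads at its start but 14.3 and 15.7 RPKM over its body. Whether these models begin at the start in use was not tested. At starts, 4 of 4 myogenic factors were higher for Pol II, where 44.9% of all genes were. For Sox6 at starts limma called 0 of 16 fast, 0 of 8 slow and 0 of 4 myogenic genes, where 0.129% of all genes were higher. Voom called 0, 3 and 0, where it called 104 of 19354 genes higher and 20 lower. At an unadjusted p under 0.05 there were 7, 5 and 2. The share of all genes at that level was not counted, so these numbers say nothing particular about the lists.

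For each of the 7 genes, the gene nearest in its 12 values (log2 RPM of the 6 libraries at the start and over the body) was found among 17743 genes. Eya4 was nearest to Dst, a large cytolinker gene, at a distance of 1.22, Eya3 to Zdhhc17 at 0.94, Six4 to Zfp275 at 1.41, Eya1 to Nrp2 at 0.98, Eya2 to Cryl1 at 0.89, Six5 to Fos at 2.01 and Six2 to Pabpn1l at 2.52. Input reads and gene length enter these distances, and Six2 and Six5 had no close neighbour.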

How the data were processed

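The members and gene lists were chosen with earlier results of these data known. The authors aligned single-end reads with Bowtie 0.12.5 to NCBI Build 37 (mm9), kept uniquely mapped reads, and called peaks with SISSRs per replicate against input; common Sox6 peaks lay close to each other in both lists. The deposited files hold read and peak positions. The deposited score of Pol II peaks is unnamed and was not used. Deposited Sox6 peaks carry no fold enrichment.

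Reads were counted by their 5′ end, with a read length of 36 bp in input replicate 1 and 39 bp elsewhere, in 1 kb to each side of the start and from 1 kb past it to the end of the longest GENCODE model. Counts were made here from positions, so log2 RPM (reads per 1000000 mapped) with 0.5 reads added were tested with limma 3.58.1 (trend, R 4.3.3), 2 against 2 libraries, for genes with at least 20 (starts) or 50 (bodies) input reads, adjusted by Benjamini-Hochberg over all genes at 0.05. Fold changes are on this scale. The added 0.5 reads are worth more RPM in the shallower ChIP libraries, which raises ChIP over input at low genes: the median gene at starts was at a log2 of 0.92 for Pol II and 0.37 for Sox6, against 0.71 and 0.068 with an equal pseudocount in RPM. Peaks were tested with the exact two-sided binomial test on reads of the other replicate in 450 bp (scipy 1.17.1). Repeated positions made up 2.96% to 7.88% of reads. The tests were checked on simulated data. Named genes are the 7 members, the fixed lists, Actb and the nearest gene to each member. Dmpk, Mnat1 and Xkr8 were added after their values were seen, as neighbours. Alternatives changed windows, scaling, pseudocount, filter, test, block, GC content and libraries.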

Additional observations from a re-analysis of the deposited data

How the results depend on the processing

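Of the 356 member values recomputed, 302 kept their direction and side of the threshold, 14 lost a call, 13 gained one and 27 changed sign, none of which was called as reported. Sign changes in Pol II at starts were -0.0949 (250 bp windows) and -0.72 (median centring) for Eya1, and 0.57 (500 bp windows) and 0.30 (2 reads added) for Eya2, which ranged from -0.74 to 0.10 with 1 library left out. In Pol II over bodies Six2 gave -0.0409 (median) and -0.76 (GC centring), and -0.10 to 0.74 with 1 library left out. In Sox6 at starts median centring gave -0.11 for Six4, -0.0073 for Eya1, -0.13 for Eya2 and -0.29 for Eya3, and an equal pseudocount -0.14 for Eya3. GC centring gave -0.20 for Six4, -0.0334 for Eya2 and -0.17 for Eya3, and with no filter as well -0.26 for Six4, -0.28 for Eya3 and -0.0825 for Eya4. With 1 library left out Six4 ranged from -0.14 to 0.88 and Eya3 from -0.24 to 0.61. In Sox6 over bodies GC centring gave -0.0068 for Six2 and 0.24 for Eya4, and 2 reads added gave 0.0376 for Six4. With 1 library left out Six4 ranged from -0.19 to 0.0294 and Eya3 from -0.32 to 0.0748. The cause was not tested.

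The number of members called higher for Pol II at starts fell from 4 to 2 with median or GC centring, and median centring gave 1 lower. For Sox6 at starts it rose from 0 to 1 with 500 bp windows (Six5) or no filter (Six2), and ranged from 0 to 2 with 1 library left out. For Sox6 over bodies it went from 1 to 0 with median or GC centring and to 2 with 2 reads added, voom or the replicate block, with 0 to 3 higher and 0 to 1 lower with 1 library left out. Pol II over bodies kept 1 to 2 lower. Where a ChIP library is left out, its lone partner is assumed to vary as the inputs do, and Sox6 calls at starts over all genes then rose from 25 to 7464 (without Sox6 replicate 1) or 3625 (without replicate 2) and fell to 0 (without input replicate 1) or 3 (without input replicate 2). Over all alternatives genes called higher ranged from 2936 to 11741 (Pol II starts), 5502 to 7857 (Pol II bodies), 0 to 7464 (Sox6 starts) and 3 to 6423 (Sox6 bodies), and genes called lower from 0 to 3548, 3004 to 6762, 0 to 2137 and 0 to 3097. With the deposited peak interval, 2 of 8 peaks of replicate 1 and 4 in all, not 7, were called, with 902 and 790 of all peaks. The total of 7 counts both common Eya4 peaks in each list. At 5 and 50 kb the genes with a common peak numbered 622 and 1639. The peaks at the members then numbered 6 and 8 in the replicate 1 list, and 3 and 4 in the replicate 2 list, with 3 members at 50 kb. Pol II peaks at the genes went from 7 to 11 in replicate 1 when starts reached 5 kb, and to 2 a list, 4 in all, when peaks had to be shared. GC alternatives were chosen after seeing the data.

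Over all genes, same-numbered libraries did not deviate together (correlations of -0.01 to 0.04). With few ChIP reads in most windows, these correlations cannot decide whether the numbers pair ChIP and input. The authors called peaks against the input of each ChIP experiment. The replicate block changed 1 member call, Six5 for Sox6 over its body (adjusted p = 0.0136), and moved the genes called higher for Sox6 from 25 to 330 at starts and from 913 to 2279 over bodies. The read totals of the ChIP libraries limit windows such as the Six2 start, where a few reads decide a value.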
